A study of Mus musculus with 4 samples.

Results

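The genes described here are 9 markers of a microglial state seen in disease and in the growing white matter: Spp1, Itgax, Clec7a, Gpnmb, Cst7, Lgals3, Cd9, Cd63 and Cd83. They were taken by name, by a rule that uses no methylation value, though earlier results of these data were known when they were chosen. They are 9 of the 33069 autosomal protein-coding and lncRNA genes of the RefSeq table. Each was measured over its annotated span with 5 kb on each side, and 2286 CpGs were listed there in at least 1 library. The data are whole-genome bisulfite sequencing of microglia from the hippocampus of Tmem119-tdTomato+/- mice at postpartum week 3. All 4 libraries carry the same heterozygous reporter, a red fluorescent protein at a microglial gene. There were 2 libraries of mice with fetal growth restriction (FGR) and 2 of control mice, and the comparison asks how growth restriction before birth relates to methylation in these cells. The labels give neither the way growth was restricted nor the sex, nor whether a replicate is 1 animal or a pool, so p-values measure only the spread between these libraries.

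Microglia are the resident macrophages of the brain. Near amyloid plaques, after myelin damage and in the white matter of the first postnatal weeks, some of them turn on a common set of genes for lipid handling, lysosomes and adhesion, and the 9 genes belong to that set. Methylation of cytosine at CpG dinucleotides is usually high across mammalian genomes and low at active or CpG-dense gene starts and at many enhancers. A level here is the percent of reads that kept C at the CpGs of a region in 1 library. It is an average over the cells of a library, so a changed share of cells and a change within cells cannot be told apart. Methylation alone does not give expression.

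The libraries were shallow. FGR replicates 1 and 2 listed 7615146 and 13578464 cytosines, and control replicates 1 and 2 listed 9335713 and 10023353. The mean coverage of a listed cytosine was 6.51 to 6.76 reads and the lowest was 5, so a CpG with fewer reads is missing from a library. Of the 2286 CpGs of the 9 genes, 110 were listed in all 4 libraries. Autosomal methylation was 75.1 ± 0.676% in FGR and 76.2 ± 0.268% in control (SD, n = 2 each), a difference of -1.05 percentage points (two-sided exact permutation p = 0.333, the smallest that 6 assignments allow, so this test cannot reach 0.05). Where all 4 libraries listed the CpG, at 1418485 positions, FGR had 76.4 ± 0.0188% and control 76.8 ± 0.108%. The start windows of microglial markers were low: P2ry12 had 2.40 ± 0.587% in FGR and 1.59 ± 2.24% in control, and Cx3cr1 1.51 ± 0.478% and 3.39 ± 0.864%. Of 7 microglial markers with a value, 6 were under 30% as the mean of the libraries. The same held for 1 of 6 markers of border macrophages and monocytes, for 0 of 3 lymphocyte and 0 of 4 astrocyte markers, for 1 of 3 of the oligodendrocyte lineage, for 2 of 3 endothelial and for 2 of 4 neuronal markers. Low starts were thus also found among markers of other cell types. Where no strand was at hand, the less methylated end of the marker gene was taken.

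The 250 bases before the RefSeq start (GRCm38.p6, the assembly of mm10) are printed 5′ to 3′ on the gene's strand for 5 of the genes, with every CG in capitals. The first 3 had all their CpGs measured, that of Cst7 was measured in 1 library, and that of Lgals3 was not measured at all. Itgax lies on the plus strand of chromosome 7 and its stretch is chr7:128129300-128129549. Clec7a is on the minus strand, chr6:129472780-129473029. Gpnmb is on the plus strand, chr6:49036268-49036517, as are Cst7, chr2:150570165-150570414, and Lgals3, chr14:47373610-47373859.
Itgax: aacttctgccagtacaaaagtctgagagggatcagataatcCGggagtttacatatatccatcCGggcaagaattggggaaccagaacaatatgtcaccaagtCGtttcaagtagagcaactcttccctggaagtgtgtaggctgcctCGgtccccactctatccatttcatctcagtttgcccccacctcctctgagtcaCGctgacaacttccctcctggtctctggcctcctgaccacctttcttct
Clec7a: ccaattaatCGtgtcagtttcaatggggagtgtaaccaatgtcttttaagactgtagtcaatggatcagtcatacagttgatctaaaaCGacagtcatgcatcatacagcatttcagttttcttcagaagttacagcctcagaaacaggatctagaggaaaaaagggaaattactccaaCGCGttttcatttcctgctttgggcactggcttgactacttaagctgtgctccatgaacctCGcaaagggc
Gpnmb: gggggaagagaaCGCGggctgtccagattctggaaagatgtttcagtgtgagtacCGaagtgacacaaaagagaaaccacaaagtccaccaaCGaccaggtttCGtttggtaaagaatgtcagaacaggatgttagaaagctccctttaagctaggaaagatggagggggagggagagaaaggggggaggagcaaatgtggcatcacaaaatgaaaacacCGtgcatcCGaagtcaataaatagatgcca
Cst7: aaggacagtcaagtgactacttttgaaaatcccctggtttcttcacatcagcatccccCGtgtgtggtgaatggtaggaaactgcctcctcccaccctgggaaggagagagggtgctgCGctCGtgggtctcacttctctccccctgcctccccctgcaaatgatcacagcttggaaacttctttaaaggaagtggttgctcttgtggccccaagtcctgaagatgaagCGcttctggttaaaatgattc
Lgals3: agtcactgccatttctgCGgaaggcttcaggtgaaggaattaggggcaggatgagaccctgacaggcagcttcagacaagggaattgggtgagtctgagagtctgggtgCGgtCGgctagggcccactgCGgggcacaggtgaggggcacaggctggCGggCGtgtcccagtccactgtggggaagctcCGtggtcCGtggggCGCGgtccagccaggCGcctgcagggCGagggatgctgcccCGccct

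The stretches of Itgax and Clec7a hold 5 CpGs each, Gpnmb 7, Cst7 4 and Lgals3 13, against a median of 6 over 27025 RefSeq promoters of this length. Spp1 holds 3, Cd63 6 and Cd9 16. The more CpGs a promoter held, the smaller was the share of them that was listed. In promoters with 1 to 5 CpGs 79.8% were listed in at least 1 library, and in those with at least 10 CpGs 32.6% were. Lgals3 had 0 of 13 listed and Cd9 6 of 16, all 6 in FGR replicate 1 alone. Spp1 had 2 of 3 listed and Cd63 3 of 6.

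Of the motifs searched on both strands, TGANTCA, the AP-1 element, occurred in the Itgax stretch at -56 bp as TGAGTCA, and 6.87% of all promoters hold it. GAGGAA, the core of sites for the myeloid factor PU.1, occurred in Spp1, Clec7a and Cd63, against 23.1% of all promoters. CACGTG, an E-box, was in none of the 8 member promoters and in 6.05% of all. No match held a CpG, and a match does not show binding.

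The few reads just before these starts were mostly unmethylated in the libraries that listed CpGs there. Itgax, which encodes the integrin chain CD11c, had 2 of 22 and 2 of 27 methylated reads in FGR replicates 1 and 2, against 0 of 5 and 2 of 29 in control replicates 1 and 2. All 6 methylated reads among the 83 came from the CpG at -209 bp. The CpG at -102 bp was listed in all 4 libraries with 0 of 22 reads methylated, which allows a level of up to 13.6%. Clec7a encodes dectin-1, a receptor for beta-glucans. It had 1 of 11 and 5 of 36 methylated reads in FGR, against 4 of 12 and 0 of 6 in control, and all 10 lay at the CpG at -241 bp. The CpGs of Clec7a at -162, -71 and -69 bp were listed in FGR replicate 2 alone, so these totals come from different CpGs. Its CpG at -10 bp was listed in all 4 libraries with 0 of 26 reads methylated, which allows up to 11.5%. In both genes, then, the methylated reads sat at the CpG farthest from the start.

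Gpnmb, a transmembrane glycoprotein of lysosomes, had 2 of 18 methylated reads in FGR replicate 1, none listed in FGR replicate 2, and 9 of 55 and 4 of 35 in control. Its 15 methylated reads among 108 were spread over several of its CpGs. Cst7 encodes cystatin F, an inhibitor of lysosomal cysteine proteases. It was listed in FGR replicate 2 alone, with 0 of 27 reads methylated, which allows up to 11.1%. These limits cover counting error only, and reads that span neighbouring CpGs are counted at each of them.

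Along the genes, methylation was high with narrow low stretches. Bins of 500 bp with at least 20 reads over the libraries and at least 2 libraries numbered 382, and 40 of them, 10.5%, had a pooled level under 30%. The same share was 4.94% within 5 kb of any protein-coding or lncRNA gene and 4.20% over all autosomal bins. These shares were not matched for span length or distance from a start. Of other genes with at least 20 reads in the bin, 47.7% were under 30% in the 500 bases before the start. Between 5000 and 4500 bp before it, 6.37% were. The 40 bins formed 29 stretches, and each of the 9 genes had at least 1. Bins were described without a test, and their cutoffs were set with these data in view.

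**Figure D1:**
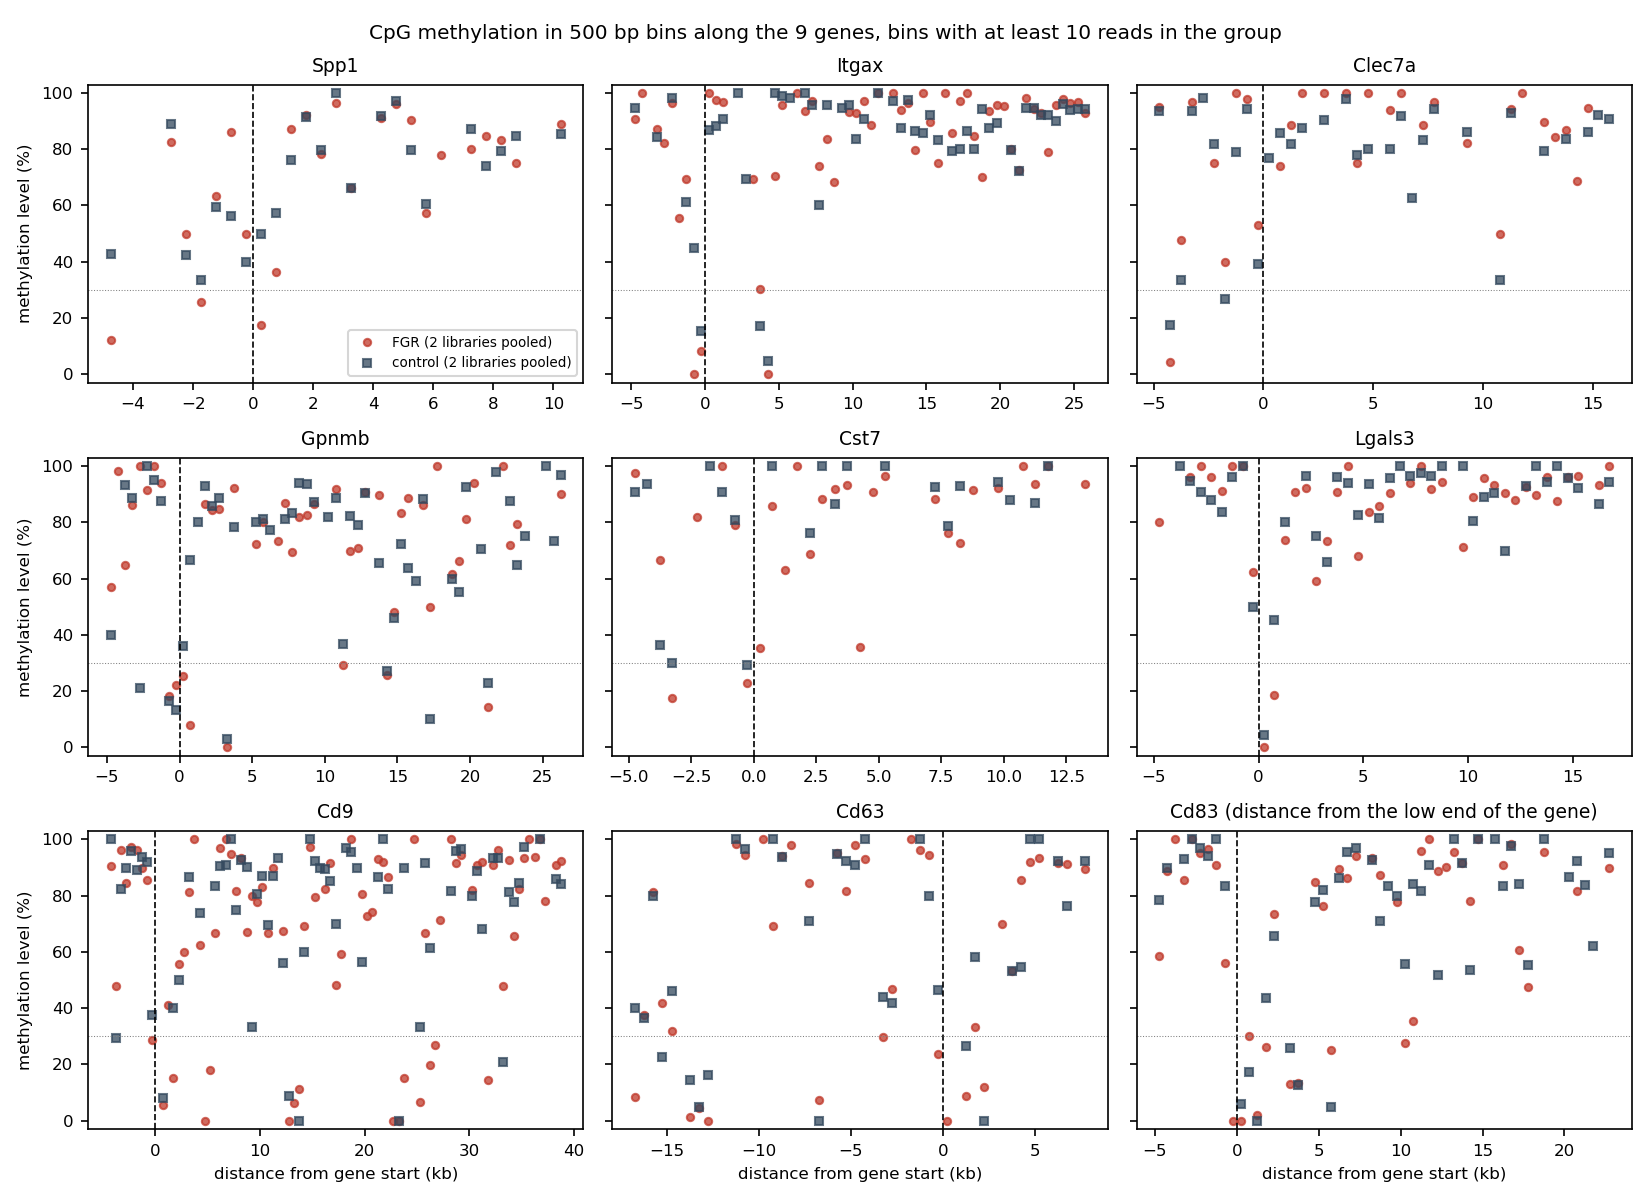
Methylation level (percent, vertical axis) in 500 bp bins against distance from the gene start (kb, horizontal axis; for Cd83 from the low end of the gene) for the 9 genes, with the 2 FGR libraries pooled (red circles) and the 2 control libraries pooled (dark squares). Bins with at least 10 reads in the group are drawn and the dotted line marks 30%. Levels dip near the start in most panels and again inside Itgax, Gpnmb, Cd9 and Cd83. In Cd63 they dip far upstream of the RefSeq start used, where the annotated gene begins.

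Around the start itself the 8 genes with a strand in the promoter table were low as other genes were, but stood higher than these farther out. Their summed level was 29.9% in the 500 bases before the start, against 33.9% over 25739 other genes, and 37.4% against 35.0% in the 500 bases after it. From 1000 to 1500 bp after the start it was 74.6% against 59.97%, and from 1000 to 1500 bp before it 82.8% against 66.3%. By library, the level just before the start was 30% and 32.5% in FGR replicates 1 and 2 and 24.9% and 31.9% in control replicates 1 and 2. The groups overlap there.

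**Figure D2:**
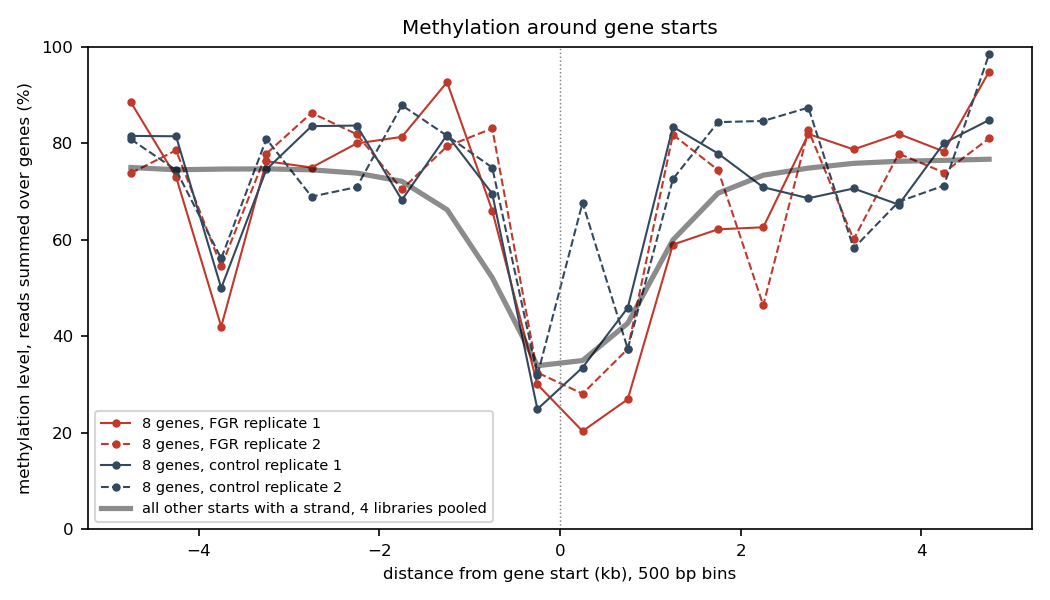
Methylation level (percent, reads summed over genes) in 500 bp bins within 5 kb of the start (kb, horizontal axis) for 8 of the genes in each library (red FGR, dark control; full line replicate 1, dashed replicate 2), and for 25739 other genes with the 4 libraries pooled (thick grey). The lines of the 8 genes lie at 24.9 to 32.5% just before the start, and in the next bin control replicate 2 stands at 67.7%, against 20.3, 28.1 and 33.5% in the others.

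Among the genes for surface receptors, the start of Itgax had a sharp edge. In the 500 bases before it 2 of 22 and 2 of 27 reads were methylated in FGR, against 4 of 10 and 2 of 29 in control. In the 500 bases after it FGR replicate 1 listed no CpG, FGR replicate 2 had 12 of 12 methylated reads, and the controls had 42 of 48 and 36 of 42. A second low stretch lay inside Itgax from 3.5 to 4.5 kb after the start (chr7:128133050-128134049), with 3 of 11 and 7 of 33 methylated reads in FGR and 6 of 41 and 4 of 32 in control. Both groups were low at each of these stretches, and the rest of the gene was methylated: the whole span of Itgax stood higher than 92.7% of all gene spans. Clec7a was methylated a little farther up, with 10 of 10 and 38 of 39 reads in FGR and 6 of 7 and 28 of 29 in control between 1000 and 500 bp before it. Its low stretch, from 4.5 to 4 kb upstream (chr6:129476780-129477279), lies in the lncRNA Gm45969, which overlaps the gene. There 0 of 27 and 2 of 21 reads were methylated in FGR and 2 of 5 and 1 of 12 in control.

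Gpnmb was low over a broader stretch. In the 1000 bases before the start 12 of 60 and 14 of 64 reads were methylated in FGR, against 12 of 93 and 10 of 68 in control. A narrow stretch from 3.0 to 3.5 kb inside the gene (chr6:49039518-49040017) was close to unmethylated in every library that listed it, with 0 of 5 and 0 of 36 reads in FGR and 1 of 35 in control replicate 2. Lgals3 encodes galectin-3, a secreted lectin. Its low stretch lay after the start, over the first 1000 bases, with 0 of 20 and 27 of 136 methylated reads in FGR and 20 of 132 and 17 of 30 in control. The bin from 1000 to 500 bp before its start was fully methylated in all 4 libraries, over 10 to 13 reads each.

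The tetraspanins Cd9 and Cd63, membrane organisers of the cell surface and of late endosomes, had low stretches both near the RefSeq start and far from it. In Cd9, on the minus strand, 2 of 25 and 0 of 10 reads were methylated in FGR from 500 to 1000 bp after the start, and 7 of 63 and 3 of 62 in control. A longer stretch from 12.5 to 14 kb inside the gene (chr6:125480761-125482260) had 1 of 32 and 6 of 59 methylated reads in FGR and 2 of 32 and 0 of 30 in control. It lies within Gm28809, a lncRNA that overlaps Cd9. In Cd63 the longest low stretch lay 14 to 12.5 kb before the RefSeq start, at chr10:128895345-128896844, and it holds the base where the annotated gene begins, 128896231. There 0 of 15 and 4 of 149 reads were methylated in FGR, against 6 of 39 and 12 of 108 in control. The RefSeq start used for Cd63, 128909345, lies inside the annotated gene, which ends at 128912822. The promoter CpGs, motif matches, start window, profile and distances of Cd63 refer to that start. Its upstream flank is instead the 5 kb before the annotated gene.

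Cd83, a surface protein of the immunoglobulin family known from activated dendritic cells, had the widest low stretch of the 9, 4 bins at the low end of the gene (chr13:43784612-43786611). It held 4 of 109 and 0 of 66 methylated reads in FGR and 4 of 33 and 8 of 74 in control. A second stretch 3 to 4 kb inside the gene had 12 of 87 and 4 of 36 methylated reads in FGR and 9 of 42 and 1 of 5 in control. Spp1, which encodes the secreted adhesion protein osteopontin, had no deep stretch: its 3 low bins had pooled levels of 26.2, 28.8 and 28.3%. Cst7 had 2 low bins, of which the one just before the start held 0 of 5 and 20 of 82 methylated reads in FGR and 7 of 18 and 0 of 6 in control.

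Over whole spans, no member was called different between FGR and control. A call needed an adjusted p under 0.05 in a quasi-binomial test across all spans and at least 10 points. Of 32609 spans tested 0% were called. An unadjusted p under 0.05 was reached by 2059 of them, 6.31%, while limma on log2 ratios called 0 and had 1990 at that p. The number of spans called depended on the prior of the overdispersion: it was 0 with the planned prior from all spans, and 301, with 0 members among them, when each overdispersion was first raised to at least 1. Of the 9 members 0 had an unadjusted p under 0.05, and the smallest adjusted p was 0.874. Both FGR libraries lay below both controls at 3 of the 9 spans, Cd9, Cd63 and Cd83, where 25.8% of all spans did so, and the groups did not overlap at 36.1% of all spans in either direction. At Cd63 the groups nearly met, with FGR replicate 1 at 61.21% and control replicate 2 at 61.24%. The FGR mean was the lower at 6 of 9 members and at 63.1% of all spans. The members' median difference was -2.06 points, against -1.11 over all spans.

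Of the secreted proteins, Spp1 (chr5:104435111-104441053) had 82.4 and 63.7% in FGR and 68.5 and 72.0% in control. The FGR replicates lie on either side of both controls, and the difference was 2.82 points (adjusted p = 0.999). Lgals3 (chr14:47373860-47386167) had 88.9 and 80.9% in FGR and 79.4 and 88.5% in control, a difference of 0.952 points (adjusted p = 0.992). In both genes the gap within a group exceeded the difference between the groups. Cst7 (chr2:150570415-150578944) had 80.7 and 73.6% in FGR and 79.1 and 87.1% in control, a difference of -5.98 points with the smallest adjusted p of the 9. It was -1.97 points without control replicate 2 and -9.99 without control replicate 1.

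Of the receptors and surface proteins, Itgax (chr7:128129526-128150657) hardly varied, with 86.2 and 86.0% in FGR and 85.8 and 86.0% in control over 689 to 1412 reads. Clec7a (chr6:129461591-129472785) had 79.2 and 78.7% in FGR and 78.6 and 84.0% in control, and control replicate 2 stands above the other 3. Cd83 (chr13:43785112-43803133) had 54.1 and 73.2% in FGR and 77.6 and 74.4% in control. Its difference was -12.3 points (adjusted p = 0.892), and came to -2.85 points when FGR replicate 1 was left out and -21.9 points when FGR replicate 2 was (adjusted p = 0.287 in the quasi-binomial fit with limma moderation). Inside Clec7a the parts went opposite ways: the upstream flank had 65.5 and 66.7% in FGR and 78.0 and 79.7% in control, while the body had 85.9 and 88.0% in FGR and 77.5 and 85.0% in control. At CpGs listed in all libraries the body still had FGR above control, and the upstream flank overlapped over 6 CpGs, with 61.8 and 72.4% in FGR and 72.2% in both controls.

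Of the lysosomal and tetraspanin genes, Gpnmb (chr6:49036518-49058182) had 73.8 and 68.1% in FGR and 73.0 and 73.0% in control. Its upstream flank of 5 kb ran against the whole span, with 68.2 and 62.4% in FGR and 47.9 and 46.6% in control, and 23.8 and 21.1% in FGR and 11.5 and 10.5% in control at its 3 CpGs listed in all libraries. Cd9 (chr6:125460266-125494760) had 68.7 and 74.2% in FGR and 78.6 and 74.4% in control, a difference of -5.06 points (adjusted p = 0.884) in which FGR replicate 2 and control replicate 2 nearly meet. Cd63 (chr10:128896231-128912822) was the least methylated of the 9 spans, with 61.2 and 60.8% in FGR and 62.2 and 61.2% in control. Only 12.99% of all spans had a lower level. The upstream flank of Cd63 begins inside Gdf11 and had 5.45 and 19.0% in FGR and 49.1 and 14.5% in control. The body of Cd63 had 55.2 and 68.5% in FGR and 60.8 and 71.9% in control. The flanks and bodies were not tested.

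The libraries list different CpGs, so the spans were compared again at CpGs listed in all 4. Of 29996 such spans 0% were called. The unadjusted p was under 0.05 for 1697, 5.66%, and limma called 0 and had 1588 at that p. Of the 8 members tested 0 were called, with a smallest adjusted p of 0.952, and the groups did not overlap at 2 of 8, against 33.3% of all. The differences were 2.38 points for Spp1, -0.520 for Itgax, 2.47 for Clec7a, -5.45 for Gpnmb, 0.547 for Lgals3, 1.42 for Cd9, 9.64 for Cd63 and -5.66 for Cd83. Cst7, with 2 such CpGs, was below the minimum of 3. The 3 members whose FGR libraries lay below the controls over all listed CpGs did not keep that order here: Cd9 overlapped, Cd63 had 88.9 and 90.5% in FGR and 81.8 and 78.3% in control over 3 CpGs, and Cd83 overlapped over 5 CpGs. Means of the 4 libraries at these CpGs and over the span were 84.9 and 61.4% for Cd63. They were 90.6 and 69.8% for Cd83 and 75.6 and 74.0% for Cd9. In Cd63 and Cd83 0 of these CpGs were under 30%, so their low stretches were not compared. Gpnmb had 63.1 and 57.8% in FGR and 68.0 and 63.7% in control over 23 CpGs, which separates the groups by less than 1 point.

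**Figure D3:**
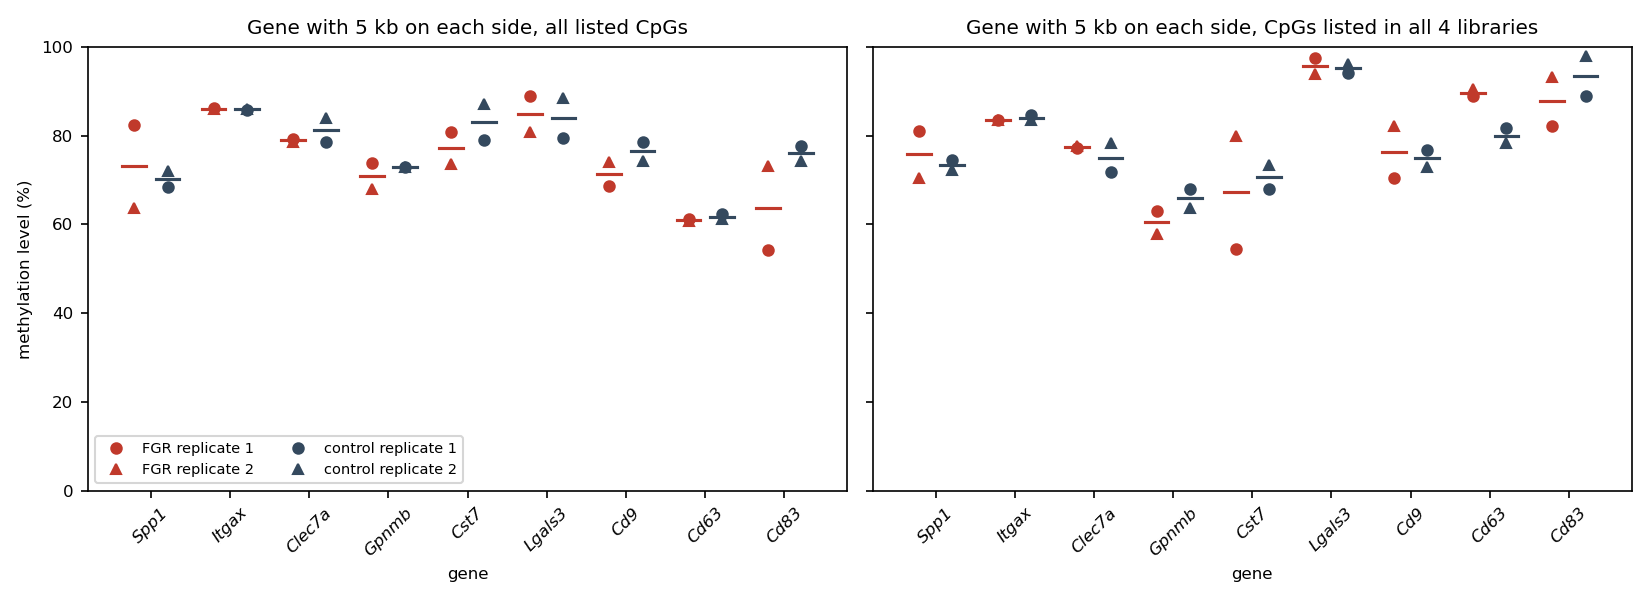
Methylation level (percent) of each gene with 5 kb on each side, at all listed CpGs (left panel) and at CpGs listed in all 4 libraries (right panel), with FGR libraries in red left of the controls in dark blue, circles for replicate 1, triangles for replicate 2 and bars for the mean of 2. The separation of Cd83 on the left, 63.6% in FGR against 76.0% in control as means, is 87.7% against 93.4% on the right, over 5 CpGs. The groups of Cd63 nearly meet on the left, and on the right FGR lies above control over 3 CpGs.

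Start windows, from 1500 bp before to 500 bp after the start, gave differences of -32.0 to 10.7 points, against -12.3 to 2.82 for the spans. They moved with the CpGs compared and with the weight of each library, so 2 more values are given: all listed CpGs with the reads pooled per group, and CpGs listed in at least 1 library of each group with the reads pooled. Of 28426 windows 0% were called, though 1492, 5.25%, had an unadjusted p under 0.05, and limma called 0 and had 1330 at that p. With each overdispersion raised to at least 1 before moderation 238 were called, 0 of them members. Of the 10 member windows, which include both ends of Cd83, 0 were called and the smallest adjusted p was 0.909. An unadjusted p under 0.05 was reached by 2 of the 10, Cst7 and the low end of Cd83. The groups did not overlap at 3 of 10, against 33.6% of all windows. Itgax had 28.3 and 51.2% in FGR and 60 and 62.6% in control, a difference of -21.6 points, which shrank to -10.2 when FGR replicate 1 was left out and grew to -33.1 when FGR replicate 2 was. Pooled reads of all listed CpGs gave 43.2% in FGR and 61.3% in control. At the 11 of its 23 CpGs listed in both groups the pooled levels were 44.1% in FGR and 41.1% in control. As given above, FGR replicate 1 listed no CpG in the methylated 500 bases after the start.

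At the low end of Cd83, too, the groups listed different CpGs. All listed CpGs gave 14.3 and 26.0% in FGR and 60.7 and 43.5% in control, a difference of -32.0 points (adjusted p = 0.909), and pooled reads gave -33.3 points. In the 500 bases on either side of that end, FGR listed 45 and 26 reads before it and 25 and 20 after it, of which 0 were methylated, against 0 and 6 reads before it and 12 and 5 after it in control, of which 1 was methylated. At the 5 of 29 CpGs listed in both groups the pooled levels were 62.2% in FGR and 66.7% in control. Both stand above the 36.1% of the window as the mean of the 4 libraries, so these CpGs cover little of its less methylated part. Whether the listing of CpGs accounts for the differences of Itgax and Cd83 was not tested. Cst7 had 68.8 and 37.4% in FGR and 63.6 and 80% in control, a difference of -18.7 points that came to -3.07 with FGR replicate 2 left out and -34.4 with FGR replicate 1 left out. Pooled reads gave 41.0% in FGR and 72.3% in control at all listed CpGs, and 51.1% and 57.1% at CpGs listed in both groups.

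The Gpnmb difference was close to its value under the other weighting and CpG choice, but rested on control replicate 1, and it was not called. Its window had 33.0 and 32.3% in FGR and 19.1 and 31.4% in control, a difference of 7.44 points (adjusted p = 0.9999), which was 7.73 points with the reads pooled. The pooled levels were 30.9% in FGR and 24.1% in control at the 18 of 36 CpGs listed in both groups. The difference was 1.31 points without control replicate 1 and 13.6 without control replicate 2. Control replicate 2 lies within 1 point of FGR replicate 2. Lgals3 had 83.5 and 80.8% in FGR and 46.9 and 96.0% in control, and Cd63 20 and 72.1% in FGR and 58.6 and 74.3% in control. In both, the replicates of 1 group were farther apart than the group means. With the reads of all listed CpGs pooled, Lgals3 had 82.9% in FGR and 53% in control, and at CpGs listed in both groups 91.1% in FGR and 91.0% in control. For Cd63 pooling alone gave 59.3% in FGR and 64.5% in control, and CpGs listed in both groups 54.1% in FGR and 52.1% in control. The start of Cd9 had 46.7 and 90.3% in FGR and 71.2 and 62.1% in control, a difference of 1.88 points that was -10.7 with the reads pooled, and the pooled levels were 65.2% in FGR and 50% in control at the 7 CpGs listed in both groups. Spp1, with 62.5 and 52.2% in FGR and 51.1 and 55.1% in control, and Clec7a, with 69.8 and 70.9% in FGR and 66.7 and 77.2% in control, overlapped.

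**Figure D4:**
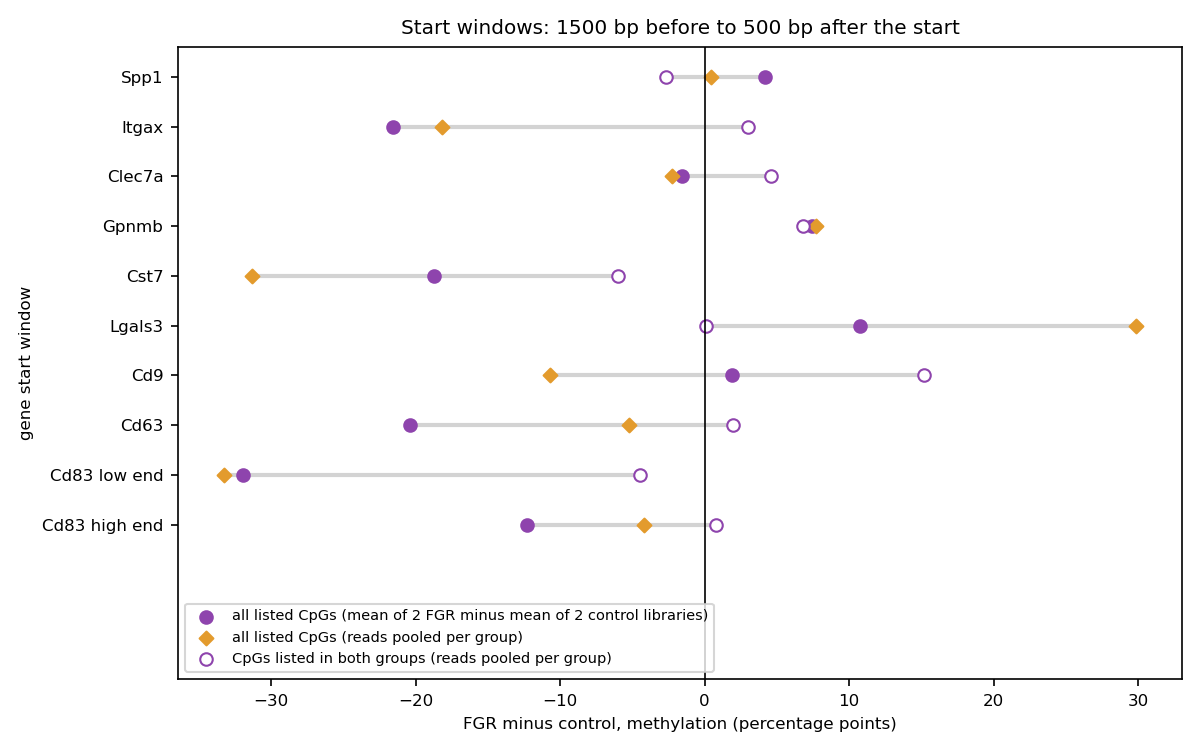
Difference in methylation, FGR minus control (percentage points, horizontal axis), in the start window of each gene, at all listed CpGs as group means of 2 libraries (filled circles), at all listed CpGs with reads pooled per group (diamonds) and at CpGs listed in both groups with reads pooled (open circles). With reads pooled, the low end of Cd83 lies at -33.3 points over all listed CpGs and -4.50 at CpGs listed in both groups, and Itgax at -18.2 and 2.98, while Cd63 moves from -20.4 as means to -5.26 on pooling and 1.97 at CpGs listed in both groups.

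At finer scale, 76 of 230 tiles of 1 kb in the spans had 3 CpGs and 10 reads in every library. Of 550538 autosomal tiles 28 were called, 0.00509%, with 7 higher and 21 lower in FGR, and 0 of the 76 were among them. At an unadjusted p under 0.05 there were 6 of 76, 7.89%, against 4.52% of all tiles. The groups did not overlap at 33 of 76, 43.4%, where 33.0% of all tiles did not overlap. FGR was higher at 17 and lower at 16, 22.4 and 21.1%, against 15.3 and 17.7% of all tiles. Cd83 gave 7 of its 9 tested tiles and Gpnmb 7 of its 15. The tiles of the 9 genes had a median level of 84.9%, against 81.0% over all tiles. Under 30% were 5 of 76, 6.58%, against 2.74% of all, again not matched for distance from a start. On CpGs listed in all libraries 11 member tiles could be tested and 0 were called, where 0.000686% of 145706 tiles were, and the smallest adjusted p was 0.953.

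The smallest p among member tiles were in Cd83. The tile centred 10.4 kb from the low end had 0 and 29.3% in FGR and 63.0 and 57.6% in control (adjusted p = 0.686), and with reads pooled 22.4% in FGR and 60% in control at all listed CpGs, against 58.3% in FGR and 55.6% in control at the 3 CpGs listed in both groups. At the Itgax start the tile had 9.09 and 35.9% in FGR and 79.3 and 53.5% in control (adjusted p = 0.726), and with reads pooled 26.2% in FGR and 65.1% in control at all listed CpGs, against 26.2% in FGR and 35.7% in control at the 6 of 15 listed in both groups. The Cd63 tile 4.16 kb after the start had 95.3 and 79.5% in FGR and 33.3 and 68.3% in control (adjusted p = 0.840), and with reads pooled 86.4% in FGR and 58.9% in control at all listed CpGs, against 83.5% in FGR and 64.3% in control at the 9 of 19 listed in both groups. These 3 tiles separated the groups at all listed CpGs. The tile with the lowest level of all lay 13.3 kb inside Cd9, with 3.70 and 0% in FGR and 0% in both controls over 26 to 30 reads. The lowest tile of Gpnmb, at its start, had 24.3 and 23.2% in FGR and 15.7 and 27.7% in control. That of Lgals3, 0.641 kb after the start, had 0 and 27.7% in FGR and 29.6 and 64.4% in control.

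Single CpGs could be followed in all libraries at 110 positions. The FGR mean was higher at 40 of them, lower at 47 and equal at 23. Both FGR libraries were above both controls at 12 of 110 and below at 7, against 10.7% and 11.7% of the 1418485 CpGs listed in all libraries genome-wide. Of the 110, 68 had a mean over 80% and 12 a mean under 30%, of which 5 were in Gpnmb and 3 in Clec7a. The largest difference of Gpnmb lay 19258 bp after the start, with 75 and 81.8% in FGR and 28.6 and 36.4% in control over 7 to 16 reads. In Cd9 it lay 30982 bp after the start, with 100 and 100% in FGR and 50 and 57.1% in control over 5 to 7 reads. In Spp1 it lay at -2319 bp from the start, with 83.3 and 37.5% in FGR and 20 and 9.09% in control over 5 to 11 reads. Each was picked as the largest difference of its gene, so it gets no test. CpGs at 0% in all 4 libraries lay 10628 bp after the start of Clec7a and 21190 bp after that of Gpnmb, over 5 to 10 reads each.

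The other genes of the same state, 30 listed by name, were tested over their spans for 29. Of these 0 were called, 7 had the higher FGR mean and 22, 75.9%, the lower, where 63.1% of all spans had it lower, and 5 had an unadjusted p under 0.05, against 6.31% of all spans. Their median difference was -3.70 points, and -1.06 points over the 26 tested at CpGs listed in all libraries, where 12 had the higher FGR mean and 14 the lower. The smallest p were those of B2m, Apoe and Ank. B2m, the light chain of MHC class I, had 40.6 and 34.5% in FGR and 53.8 and 59.4% in control (adjusted p = 0.750), a difference of -19.1 points that was 1.53 points at CpGs listed in all libraries. Apoe, a lipid transport protein, had 71.1 and 64.6% in FGR and 47.7 and 56.5% in control (adjusted p = 0.763), and its difference was 15.8 points over all listed CpGs and 12.9 points at those listed in all libraries (adjusted p = 0.667). Ank had 81.8 and 82.4% in FGR and 84.6 and 87.4% in control (adjusted p = 0.763), a difference of -3.89 points that was 1.10 points at CpGs listed in all libraries (adjusted p = 0.980).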

How the data were processed

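Whole-genome bisulfite sequencing of hippocampal microglia gave 2 FGR and 2 control libraries. Per the submitters' processing notes, the tools were Trim Galore 0.6.5, Bismark and methylKit 1.28.0, on mm10. No source used here gives their settings. The deposited tables list, per the file headers, each cytosine of a CpG by strand with its coverage, a count of reads, and the percent of these reads with C and with T. The lowest deposited coverage was 5.

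Coverage times percent gave methylated reads, whole within 0.02 reads at 100% of cytosines. Strands were summed per CpG, and the top 0.1% of CpGs by coverage were dropped per library. Spans and promoters came from RefSeq tables of GRCm38.p6, and 8 of the 9 genes had a promoter there. A region needed 3 CpGs and 10 reads in every library. Reads were fitted by a quasi-binomial model, with only the group as a term, in R 4.3.3, overdispersion moderated with limma 3.58.1, and p-values adjusted by Benjamini-Hochberg over all regions of a kind. The planned prior of the overdispersion used all regions. After its results on these data had been seen, 3 versions were compared on simulated data, and a prior from regions at 10 to 90% was adopted, a departure from the plan. The other versions, from all regions and from all regions with each overdispersion raised to at least 1, are given as alternatives. Alternatives were limma on log2 ratios with 0.5 added, the replicate number as a block, leaving out each library, CpGs with at least 10 reads, no upper coverage filter, shorter flanks and equal weight per CpG. The comparison at CpGs listed in both groups, the pooling of reads per group and the 500 bp bins, used for low stretches in place of tiles, were chosen after seeing the data.

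The members and lists were chosen with earlier results of these data known. Named tiles are the lowest and the one with the smallest p of each gene, named CpGs those lowest, highest and most different among CpGs listed in all libraries, and named other genes the 3 with the smallest p.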

Additional observations from a re-analysis of the deposited data

How the results depend on the processing

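Of 316 alternative values for the 9 genes, 261 came with a test, and none of these was called (adjusted p 0.287 to 1). The other 55, from pooled reads or equal weight per CpG, had no test. Of the 316, 39 turned the sign of a difference that had not been called. Over all regions, the 28 called tiles became 0 with limma, 0 with only CpGs of at least 10 reads, 362 with the replicate number as a block, and 1323 to 1508 without 1 library. With the planned prior of the overdispersion, from all regions, 1 tile and 0 spans and starts were called. With that prior after each overdispersion was raised to at least 1, 338 tiles, 301 spans and 238 starts were called, against 28, 0 and 0 with the adopted prior. At CpGs listed in all libraries both gave 0 tiles and 0 spans. The adopted prior was chosen after the planned one had been run on these data. Without 1 library more tiles could be tested, and the lone library was assumed to vary like the other group. At CpGs listed in all libraries the 1 called tile became 0 with limma, 2 with the replicate block and 0 to 2 without 1 library, and the 0 called spans became 0 to 4. Deviations of same-numbered libraries were close to uncorrelated (correlation 0.0174 over spans and 0.00211 over tiles). With so few libraries and reads, this cannot show whether the numbers are a pairing, and the labels do not say. The cause of these changes was not tested.

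Signs turned as follows, in percentage points. With no flank the difference was -0.217 for Spp1, 5.72 for Clec7a and -0.251 for Lgals3, and with a flank of 2 kb 3.60 for Clec7a, -0.0860 for Itgax and 0.761 for Cd63. With only CpGs of at least 10 reads it was -11.0 for Itgax and -3.18 for Lgals3. At CpGs listed in both groups spans had 0.551 for Cd9, 1.75 for Clec7a, -0.568 for Itgax, 1.53 for Cd63 and -0.307 for Lgals3, and starts -2.66 for Spp1, 4.56 for Clec7a, 2.98 for Itgax, 1.97 for Cd63 and 0.801 for the high end of Cd83. Pooling the reads of all listed CpGs gave -10.7 for the start of Cd9. With equal weight per CpG, Itgax at CpGs listed in all libraries had 2.12. Without 1 library, spans ranged from -6.53 to 12.2 for Spp1, -4.93 to 0.812 for Gpnmb, -5.08 to 0.310 for Clec7a and -3.62 to 5.52 for Lgals3. At CpGs listed in all libraries they ranged from -2.999 to 7.76 for Spp1, -4.38 to 7.23 for Cd9, -0.790 to 5.73 for Clec7a, -1.12 to 0.0833 for Itgax and -1.18 to 2.28 for Lgals3. Without a turn of sign, spans ranged from -9.99 to -1.97 for Cst7, -21.9 to -2.85 for Cd83 and -7.80 to -2.33 for Cd9, and starts from -34.4 to -3.07 for Cst7, 1.31 to 13.6 for Gpnmb, -33.1 to -10.2 for Itgax and -40.6 to -23.3 for the low end of Cd83. Other starts ranged from -0.958 to 9.37 for Spp1, -19.9 to 23.7 for Cd9, -6.84 to 3.69 for Clec7a, -46.5 to 5.68 for Cd63, -13.9 to 35.3 for Lgals3 and -26.4 to 1.85 for the high end of Cd83.

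With 2 libraries a group and a mean of 6.51 to 6.76 reads per listed cytosine, no limit of detection was computed for these regions. In the 250 bases before the start of Lgals3, 0 of 13 CpGs were listed.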

Other observations

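Some flanks of the 9 genes were apart between the groups, and they were not tested. No share of flanks apart was computed over all genes. The groups did not overlap at 36.1% of all gene spans and at 33.0% of all 1 kb tiles. The 5 kb below Cd83 had 57.2 and 73.2% in FGR and 95.6 and 89.5% in control, but at its 2 CpGs listed in all libraries the groups overlapped, with 70 and 100% in FGR and 92.9 and 95.2% in control. The 5 kb after Cd63, which reach into Rdh5, had 92.0 and 86.0% in FGR and 74.0 and 80% in control, and held 0 CpGs listed in all libraries. The 5 kb after Lgals3, which reach into Dlgap5, were close, with 93.3 and 90.7% in FGR and 94.1 and 93.6% in control. Of the microglial markers, the start of Siglech, a lectin receptor, had 26.7 ± 18.9% in FGR and 82.5 ± 15.4% in control (n = 2 each, adjusted p = 0.903 with limma-moderated overdispersion), and P2ry12 and Cx3cr1 were under 5% in both groups. Siglech had the largest start difference and the smallest start p of all the markers, over 15 to 85 reads per library. Its start was not compared at CpGs listed in both groups.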
